A study of Bos taurus and Sus scrofa with 10 samples.

Results

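The blastocoel is the fluid-filled cavity that turns a morula into a blastocyst. The genes described here encode pump subunits, water channels and carriers of kinds that can take part in filling it. Not all of these genes were read in the blastocyst libraries. They were chosen by name as 9 gene symbols: 3 beta subunits of the sodium-potassium pump (ATP1B1, ATP1B2 and ATP1B3), 4 aquaporins (AQP3, AQP8, AQP9 and AQP11), the sodium-proton exchanger SLC9A3 and the sodium-phosphate carrier SLC34A2. Of these, 8 were among the 22845 rows of the cow table and 7 among the 21867 rows of the pig table, and 6 had a row in both. SLC9A3 in cow and ATP1B2 and ATP1B3 in pig carried no row under these symbols and were not analysed here.

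As the cavity forms, the outer cells of the embryo, the trophectoderm, move sodium from the outside to the inside, and water follows. Sodium enters these cells through exchangers and channels in the outer membrane and is driven out on the inner side by the sodium-potassium pump (Na/K-ATPase), an ATP-consuming complex of a catalytic alpha subunit and a glycosylated beta subunit that brings it to the membrane. Aquaporins are membrane pores for water, some of which also pass glycerol or urea, and tight junctions between the cells keep the fluid from leaking back.

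Total RNA was sequenced from oocytes, from embryos of 2-4 and of 8-16 cells, from morulae and from blastocysts of the cow, Bos taurus, and the pig, Sus scrofa. Runs of 5 values below are in this stage order. Each stage of each species was a single library, 10 libraries in all, so no difference given here has a replicate check and no test between stages was possible. The labels name no treatment, genotype or animal age, and they do not say how the embryos were produced or how many were pooled. Levels are given as the reads of a gene scaled to 1000000 reads of its library (RPM), which compare a gene between stages but not genes of different length. All intervals are 95% intervals and cover counting error only: Wilson intervals for RPM, exact binomial intervals for ratios of reads. A count of 0 reads allows a level of up to 3 reads, called the floor, which lay between 0.212 RPM in the cow blastocyst library and 0.999 RPM in the pig morula library. A fold given as "at least" is the higher level over the floor of the library with 0 reads. It leaves out the counting error of the higher level and is not a 95% limit.

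Library totals lay between 3002751 reads (pig morula) and 14182046 reads (cow blastocyst), and mitochondrial genes took between 2.74% and 30.2% of them, with the highest share in the cow blastocyst library. Marker genes were checked against the stage labels: 11 oocyte markers with a row summed to 6174 RPM in the cow oocyte library and 0.282 RPM in the cow blastocyst library, and 11 in pig to 7759 and 23.6 RPM. Trophectoderm markers summed to 141 RPM in the cow oocyte and 4372 RPM in the cow blastocyst library (11 of 11 at 1 RPM or more), and to 23.1 and 10698 RPM in pig (12 of 12). Inner cell mass markers stood at 1 RPM or more for 4 of 6 in the cow oocyte and 6 of 6 in the cow blastocyst library. Their cow sum was highest at the 8-16 cell stage, at 1104 RPM, with 321 RPM in the morula and 209 RPM in the blastocyst. In the pig blastocyst library all 5 with a row had 0 reads. Primitive endoderm markers, of the other early lineage of the blastocyst, summed to 23.5 RPM in the cow oocyte and 467 RPM in the morula. They summed to 5417 RPM in the cow blastocyst (7 of 8 at 1 RPM or more), and in pig to 42.9, 271 and 325 RPM (5 of 7). Most of the blastocyst sum was FN1 in cow (4843 RPM) and GATA6 in pig (261 RPM). Pig GATA4 went down from 33.5 RPM in the oocyte to 4.02 RPM in the blastocyst. Pig RSPO3 went from 17.0 RPM in the morula to 0 reads in the blastocyst, and SOX17 had 0 reads in every pig library. In such bulk RNA, more cells of a type and more RNA per cell cannot be told apart. Cumulus cell markers, which would show follicle cells around the oocyte, summed to 303 RPM in the cow oocyte library (6 of 14 at 1 RPM or more) and to 49.0 to 236 RPM in the later cow libraries. In the cow oocyte library HAS2 (141 RPM), VCAN (116 RPM) and FSHR (37.3 RPM) made up most of this sum, and AMH, CYP11A1, FST, AMHR2, LHCGR and FOXL2 had 0 reads. In pig they summed to between 103 and 367 RPM (4 to 6 of 10 at 1 RPM or more), most of it VCAN (77.8 to 338 RPM), with TNFAIP6, CYP11A1 and INHBA at 0 reads in the oocyte library. The part of these markers' cells in the results was not tested.

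Changes between libraries are differences of log2(RPM + 1), computed for genes that reached 1 RPM in either library, with 0 reads entering as 0.9 of a read, as deposited. A gene was called higher or lower at a difference of 2, which is 4-fold on this scale, and such a gene is said to have risen or fallen. From oocyte to blastocyst, 5 of the 6 cow genes compared rose (21.8% of all 12738 genes compared did) and 1, ATP1B1, fell (18.4%). AQP8 and AQP9 were under the minimum in both cow libraries. In pig 3 of 6 rose (26.0% of 12512 genes) and 0 fell (19.2%), with AQP11 under the minimum at both ends. The median difference over all genes compared was 0.18 in cow and 0.43 in pig. A gene that reaches the minimum only where it is high had to differ, so these counts describe the list and are not evidence for it.

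The steps at which the genes moved were only in part the same in the 2 species. In both, SLC34A2 rose at the step to the 8-16 cell stage and AQP11 fell at the step to the blastocyst. No other step of a gene was called in the same direction in both. The genes compared were not the same in the 2 species, and the difference between them was not tested. At the first cow step, to the 2-4 cell stage, 0 of the 3 genes compared rose (0.196% of all genes did) and 0 fell (0.178%). At the cow step to the 8-16 cell stage, 5 of 6 rose (12.6%) and 1 fell (14.6%). At the cow morula AQP3 alone of 6 rose (6.67%) and ATP1B1 alone fell (5.15%), and at the cow blastocyst 0 rose (11.9%) while AQP3 and AQP11 fell (11.5%). At the first pig step 0 of 2 rose (3.26%) and 0 fell (2.17%). SLC34A2 was the 1 of 2 that rose at the pig 8-16 cell stage (4.33%), and 0 fell (0.543%). At the pig morula 3 of 4 rose, AQP9, AQP11 and SLC34A2 (12.0%), and 0 fell (11.3%). At the pig blastocyst AQP3 rose (13.8%), and AQP11 and SLC34A2 fell (13.8%).

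In cow the reads of the pump's beta subunits went from mostly ATP1B1 to mostly ATP1B3. ATP1B1, the most widely expressed beta subunit (chromosome 16, 37568416 to 37593957, plus strand), stood at 105, 122, 28.5, 4.36 and 5.99 RPM from oocyte to blastocyst. Its levels were thus high in the first 2 libraries and low in the last 2, with overlapping intervals within each pair (96.2 to 114 and 112 to 133 RPM, and 2.72 to 6.98 and 4.85 to 7.41 RPM). From oocyte to blastocyst it fell 17.5-fold (13.9 to 22.3), a difference of -3.92. The drop came in the steps to the 8-16 cell stage, 4.28-fold (3.57 to 5.15), and to the morula, 6.54-fold (3.96 to 11.5). The first of these was past the threshold by little, at -2.06, and was -1.86 when scaled to non-mitochondrial gene reads, -1.73 when libraries were scaled by their median and -1.71 with quantile normalisation. With a pseudocount of 5 RPM both steps were under the threshold, at -1.92 and -1.84. The last 183 bases of its span, 0.716% of it, overlap NME7 on the other strand, which stood at 170, 138, 23.2, 11.03 and 20.4 RPM in the same order.

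ATP1B3, the beta subunit also found on many blood and epithelial cells as CD298 (chromosome 1, 128050718 to 128085713, minus strand), went the other way. Its cow levels were 5.27 RPM (3.60 to 7.73) in the oocyte, then 8.34, 59.3 and 217 RPM, and 552 RPM (540 to 564) in the blastocyst. Only the first 2 of these levels had overlapping intervals, and each later library was above the one before. From oocyte to blastocyst it rose 105-fold (71.4 to 160.3), of which 7.11-fold (5.05 to 10.3) came at the step to the 8-16 cell stage. ATP1B2, the subunit known from nerve and glial cells, where it also acts in adhesion (chromosome 19, 27973743 to 27978543, plus strand), had 0 reads in the cow oocyte and 2-4 cell libraries. It then stood at 3.87 RPM (2.53 to 5.91), 11.03 RPM (8.19 to 14.9) and 18.8 RPM (16.6 to 21.1), at least 30.8-fold above the oocyte in the blastocyst library. The step to the 8-16 cell stage rests on 21 reads against 0 and was at 2.02, or 1.54 with lower counts raised to the floor and 0.77 with a pseudocount of 5 RPM.

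**Figure D1:**
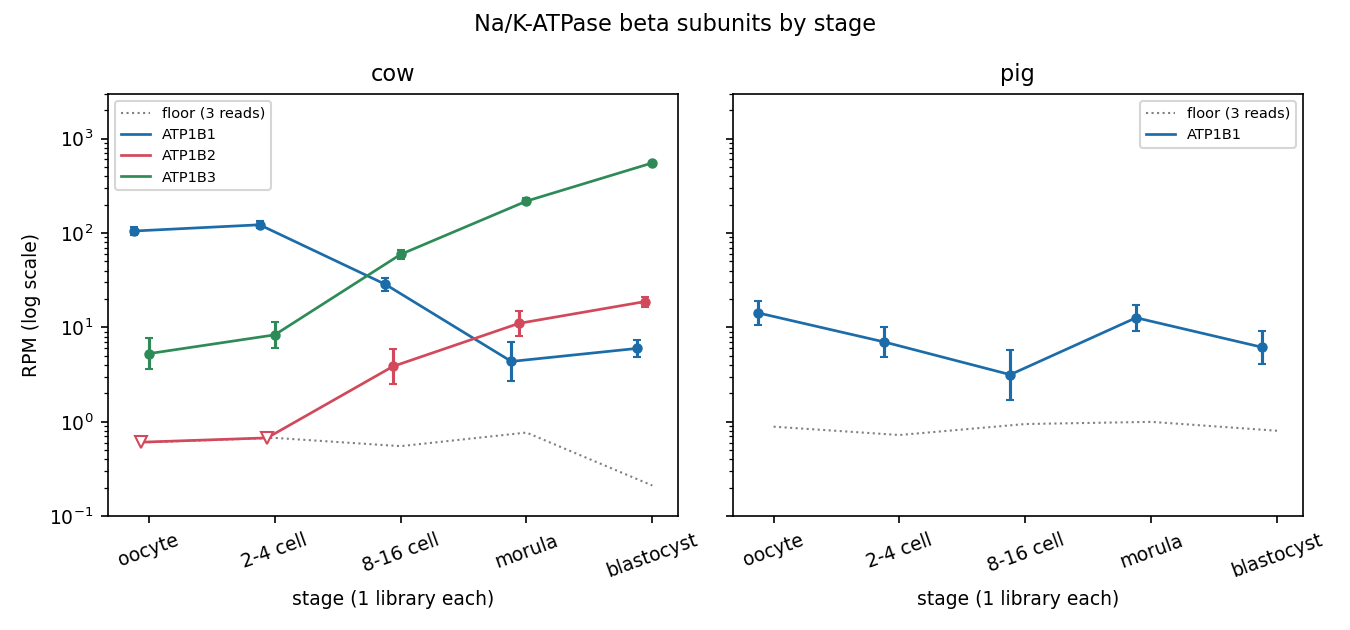
RPM on a log axis of the sodium-potassium pump genes in each library of cow (left) and pig (right), with bars for 95% Wilson intervals, open triangles for libraries with 3 reads or fewer drawn at the floor, and the floor as a dotted line. In cow ATP1B1 goes from 105 to 5.99 RPM while ATP1B3 goes from 5.27 to 552 RPM, and in pig ATP1B1 stays between 3.16 and 14.2 RPM.

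The balance between ATP1B1 and ATP1B3 was also read within each cow library, where it does not depend on how libraries were scaled. Of the reads of both genes, ATP1B1 took 95.2% in the oocyte library (exact interval 93.1 to 96.8), with 517 reads against 26, and 93.6% at the 2-4 cell stage (91.3 to 95.5). The share was 32.5% at the 8-16 cell stage (28.3 to 36.9), 1.97% in the morula (1.15 to 3.13) and 1.07% in the blastocyst library (0.859 to 1.33), with 85 reads against 7829. The reads of both genes are not corrected for length, so a share of 50% is not an equal number of transcripts, but the shift between stages does not depend on length. With 0.5 reads added to each count, the log2 ratio went from 4.29 to -6.52, a shift of -10.80 or 1788-fold.

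**Figure D2:**
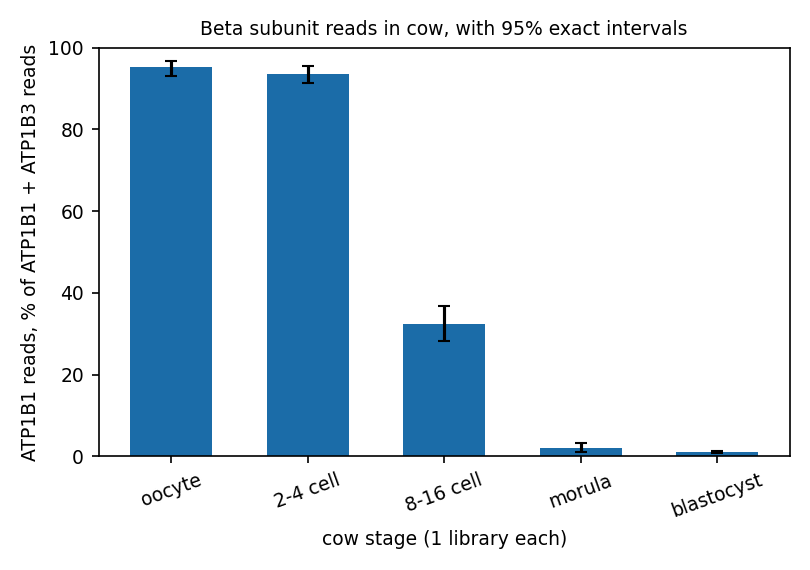
Share of ATP1B1 in the reads of ATP1B1 and ATP1B3 together in the 5 cow libraries, in percent, with 95% exact binomial intervals. The share is 95.2% in the oocyte, 32.5% at the 8-16 cell stage and 1.07% in the blastocyst library.

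Pig ATP1B1 (chromosome 4, 81894724 to 81937400, minus strand) took another course, at low levels throughout. The oocyte library had 14.2 RPM (10.7 to 18.8) and the 2-4 cell library 7.01 RPM (4.88 to 10.1). The 8-16 cell, morula and blastocyst libraries had 3.16 RPM (1.72 to 5.81), 12.7 RPM (9.22 to 17.4) and 6.17 RPM (4.11 to 9.25). In the order of these levels every neighbour had an overlapping interval, but the oocyte and morula libraries both stood above the 8-16 cell library beyond their intervals. The oocyte library also stood above the 2-4 cell and blastocyst libraries beyond its interval. The morula was 4.01-fold above the 8-16 cell library (1.96 to 9.02), at 1.72 under the threshold. From oocyte to blastocyst the difference was -1.09, under the threshold, and 2.30-fold lower (1.37 to 3.97). The counts behind these values are small, 10 to 48 reads. Of the pig gene's span 49.7% (21208 bases) overlaps NME7 on the other strand, which stood at 52.1, 34.1, 30.01, 21.6 and 53.9 RPM, and whether reads were counted by strand is not given in the sources used here, so reads of these genes cannot be told apart.

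Among 18 other pump subunits and regulators, 13 had a row in cow and 5 were compared from oocyte to blastocyst, of which 0 rose and 0 fell, with a median difference of 0.30. In pig 3 of 11 were compared, 0 rose and 1 fell, with a median of -1.19. Among all genes 21.8% rose and 18.4% fell in cow, and 26.0% rose and 19.2% fell in pig. Counts over so few genes say little beside these shares. The pig gene that fell was FXYD6, a small regulator of the pump, named here after its values were seen: it stood at 121 RPM in the oocyte, 67.7 and 119.7 RPM at the next stages, with 9 reads in the morula and 0 reads in the blastocyst library. In cow FXYD6 stood at 17.2, 48.4, 8.10, 3.33 and 21.5 RPM, so it too was low in the morula, but not in the blastocyst library.

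AQP3 was the cow aquaporin with the most reads. It is an aquaglyceroporin, a channel for water and glycerol found on the basal and lateral sides of many epithelia (chromosome 8, 76525369 to 76531334, minus strand). The oocyte and 2-4 cell libraries had 7.71 RPM (5.62 to 10.6) and 5.41 RPM (3.63 to 8.05), and the 8-16 cell library had 112 RPM (104 to 122). The morula had 765 RPM (738 to 793) and the blastocyst 151 RPM (144 to 157). The morula was thus the highest, and the oocyte and the 2-4 cell library did not differ beyond their intervals. AQP3 rose 20.8-fold (13.8 to 32.7) at the step to the 8-16 cell stage and 6.80-fold (6.23 to 7.43) at the step to the morula, then fell 5.08-fold (4.81 to 5.38) to the blastocyst. That last difference, -2.34, was -2.06 when scaled to non-mitochondrial gene reads, whose share differs between these libraries (9.15% mitochondrial reads in the morula, 30.2% in the blastocyst).

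In pig AQP3 appeared later (chromosome 10, 33045247 to 33053995, plus strand). It had 0 reads in the oocyte, 2-4 cell and 8-16 cell libraries, 1 read in the morula library and 274 reads, 73.5 RPM (65.3 to 82.7), in the blastocyst library. The blastocyst was the only pig library with more than 3 AQP3 reads, at least 82.7-fold above the oocyte, and its ratio to the single read of the morula was 221 (39.3 to 8744). At the step from morula to blastocyst AQP3 therefore rose in pig (5.80) and fell in cow (-2.34), in libraries scaled separately for each species.

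AQP11, an unusual aquaporin of membranes inside the cell, was high for a short time in both species. In cow (chromosome 29, 18477128 to 18488713, minus strand) it had 3 reads in the oocyte and 4 reads in the 2-4 cell library, then levels of 91.1 RPM (83.4 to 99.5), 48.2 RPM (41.8 to 55.6) and, in the blastocyst, 6.35 RPM (5.16 to 7.80). The rise to the 8-16 cell stage was 101-fold (39.2 to 373), and the fall from the morula to the blastocyst 7.60-fold (5.88 to 9.88). In pig (chromosome 9, 12065186 to 12077338, plus strand) it had 0, 1 and 2 reads in the first 3 libraries, 40 reads or 13.3 RPM (9.78 to 18.1) in the morula, and 1 read in the blastocyst library. The morula was the only pig library above the floor, at least 15.0-fold above the oocyte. Its rise to the pig morula (3.13) and fall after it (-3.50) were 1.70 and -1.80 with a pseudocount of 5 RPM. The highest library was that of the 8-16 cell stage in cow and that of the morula in pig. From oocyte to blastocyst cow AQP11 was at 2.19, which was 1.76 with quantile normalisation and 1.02 with a pseudocount of 5 RPM, and rests on 3 reads in the oocyte.

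AQP9, a channel for water, glycerol and urea known from liver and white blood cells, was read only in pig. In cow (chromosome 10, 52152813 to 52169474, minus strand) it had 0 reads in all 5 libraries, which allows up to 0.212 RPM in the blastocyst library and 0.769 RPM in the morula library. In pig (chromosome 1, 113794040 to 113848808, minus strand) it had 1, 2 and 0 reads in the first 3 libraries, then 42.0 RPM (35.2 to 50.0) in the morula and 81.5 RPM (72.8 to 91.2) in the blastocyst library. It rose at least 44.3-fold from the 8-16 cell stage to the morula, and the difference from there to the blastocyst was 0.94. The pig span overlaps ALDH1A2, an enzyme of retinoic acid synthesis on the other strand, over 23488 bases or 42.9% of its length. ALDH1A2 stood at 7.99, 8.94, 19.9, 118.6 and 53.1 RPM from oocyte to blastocyst, so it was highest in the morula while AQP9 was highest in the blastocyst. Reads of these genes cannot be told apart without the strand. The 9 oviduct and blood cell markers with a row in pig summed to between 8.70 and 19.8 RPM, with 3 of 9 at 1 RPM or more in the oocyte library. The leukocyte marker PTPRC had 15, 12, 11, 9 and 41 reads and was highest in the blastocyst library, at 11.0 RPM (8.10 to 14.9), as AQP9 was. S100A9 had 4 reads in the blastocyst library and 0 in the others, the liver gene ALB stood between 3.62 and 14.2 RPM, and CD14, S100A8, HBB and FOXJ1 had 0 reads in all 5. Their part in the AQP9 levels was not tested.

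AQP8, a channel known from the pancreas, liver and colon that also passes ammonia and hydrogen peroxide, was at or near the floor throughout. In cow (chromosome 25, 23069274 to 23079432, plus strand) it had 1 read at the 2-4 cell stage and 0 reads in the other libraries. In pig (chromosome 3, 21483281 to 21504014, minus strand) it had 11 reads in the oocyte, 3.26 RPM (1.82 to 5.83), then 2, 2, 1 and 0 reads. The oocyte was above the blastocyst, at 4.05-fold over the floor without the counting error of the 11 reads. Its interval overlapped that of the 8-16 cell library. The difference of -1.78 was under the threshold and passed it with a pseudocount of 0.5 RPM (-2.34), with quantile normalisation (-2.11) and with 0 reads taken as 0 RPM (-2.09). Its span overlaps ZKSCAN2 over 2725 bases, and that gene had 12, 6, 6, 5 and 0 reads in the same libraries.

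Of the 11 other aquaporin symbols, 8 had a row in cow and 7 in pig. From oocyte to blastocyst 0 of the 8 reached 1 RPM at either end in cow, and 1 of 7 did in pig, AQP6 at 1.78 RPM in the oocyte and 0 reads in the blastocyst library (-1.16, not called). AQP7, a glycerol channel, was at 3.33 RPM (1.95 to 5.70) in the cow morula library and had 0 reads in the other 4 cow libraries. AQP1 and AQP5, water channels of many epithelia, had 0 reads in the oocyte and blastocyst libraries of both species. In the blastocyst libraries the aquaporins above the floor were thus AQP3, AQP4 (0.846 RPM) and AQP11 in cow and AQP3 and AQP9 in pig.

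**Figure D3:**
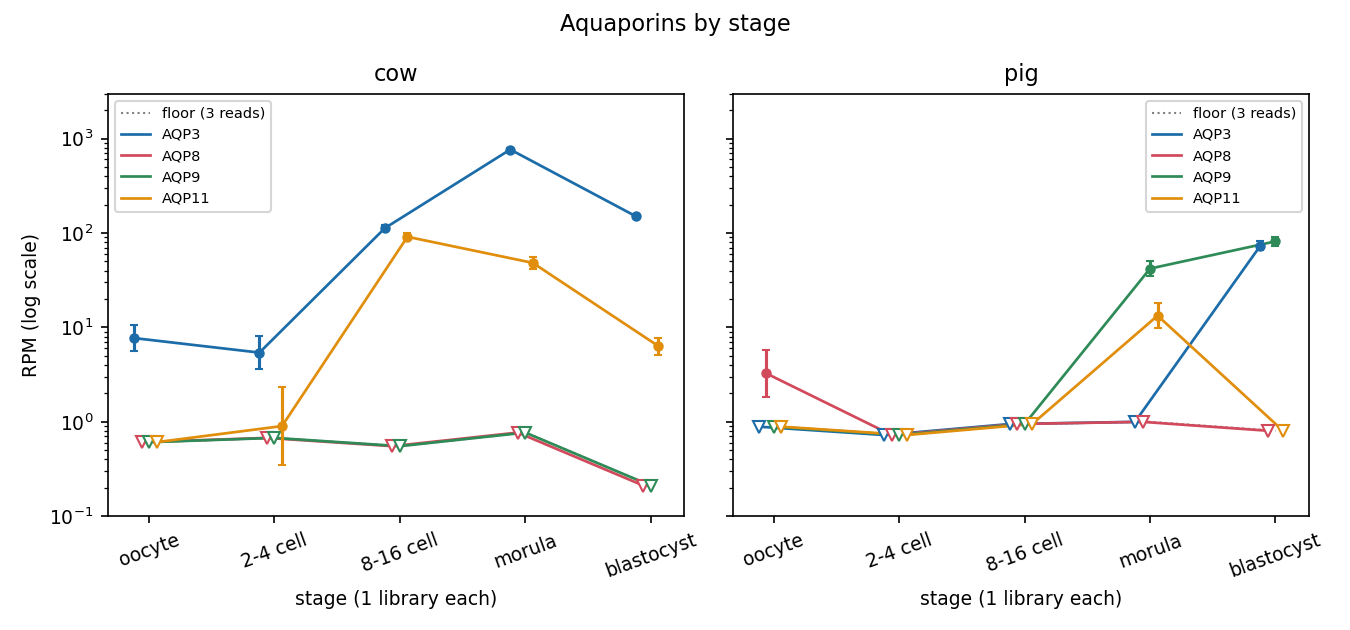
RPM on a log axis of the 4 aquaporins in each library of cow (left) and pig (right), with 95% Wilson intervals, open triangles for libraries with 3 reads or fewer drawn at the floor, and the floor as a dotted line. AQP3 peaks at 765 RPM in the cow morula and appears at 73.5 RPM in the pig blastocyst, and AQP9 is above the floor only in the pig morula and blastocyst.

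SLC34A2, a carrier that brings phosphate into epithelial cells together with sodium, went from near 0 to high levels in both species. In cow (chromosome 6, 46724553 to 46749777, plus strand) it had 0 reads in the oocyte and 1 read at the 2-4 cell stage, then 93.5 RPM (85.7 to 102), 155 RPM (143 to 167) and 352 RPM (342 to 362) at the 8-16 cell, morula and blastocyst stages. Each of the last 3 libraries was above the one before beyond its interval, and the blastocyst stood at least 579-fold above the oocyte. In pig (chromosome 8, 19493576 to 19510252, plus strand) it had 0 reads in the oocyte and 2-4 cell libraries, 35.1 RPM (29.1 to 42.2) in the 8-16 cell library, 496 RPM (471 to 522) in the morula and 10.2 RPM (7.42 to 14.0) in the blastocyst library. The pig morula was thus the peak: SLC34A2 rose 14.1-fold (11.7 to 17.3) to it and fell 48.7-fold (35.3 to 69.1) after it. Over the whole course, oocyte to blastocyst, it rose by 3.14, or 1.53 with a pseudocount of 5 RPM. The difference from morula to blastocyst was -5.47 in pig and 1.18 in cow, the latter under the threshold.

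Of 9 other phosphate carriers, 6 were compared in cow and 5 in pig from oocyte to blastocyst; 0 rose and 3 fell in each species (18.4% and 19.2% of all genes fell), with medians of -0.88 and -2.12. The same 3 genes fell in both: SLC17A1, SLC17A3 and XPR1. XPR1, which exports phosphate, was at 195 RPM in the cow oocyte and 47.7 RPM in the cow blastocyst (-2.01), and in pig at 126 and 28.2 RPM (-2.12). Both differences were close to the threshold. Calls of genes outside the list were not checked under the alternative settings described below. SLC17A1 and SLC17A3, anion carriers of kidney and liver, went from 46.7 to 1.34 RPM and from 12.0 RPM to 0 reads in cow, and from 113 to 2.14 and from 115 to 2.68 RPM in pig; SLC17A1 overlaps other rows in both tables and SLC17A3 does in pig. SLC20A1, the phosphate importer of most cells, stood between 87.4 and 140.1 RPM over the 5 cow libraries and between 67.8 and 228 RPM over the pig ones.

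SLC9A3, the exchanger that takes up sodium for protons at the outer face of kidney, gut and trophectoderm cells (pig chromosome 16, 79625262 to 79703497, plus strand), was barely read. It had 0, 2, 1, 0 and 5 reads from the pig oocyte to the blastocyst. The blastocyst level of 1.34 RPM (0.573 to 3.14) had an interval that overlapped those of every other pig library, so no difference was detectable at this depth.

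**Figure D4:**
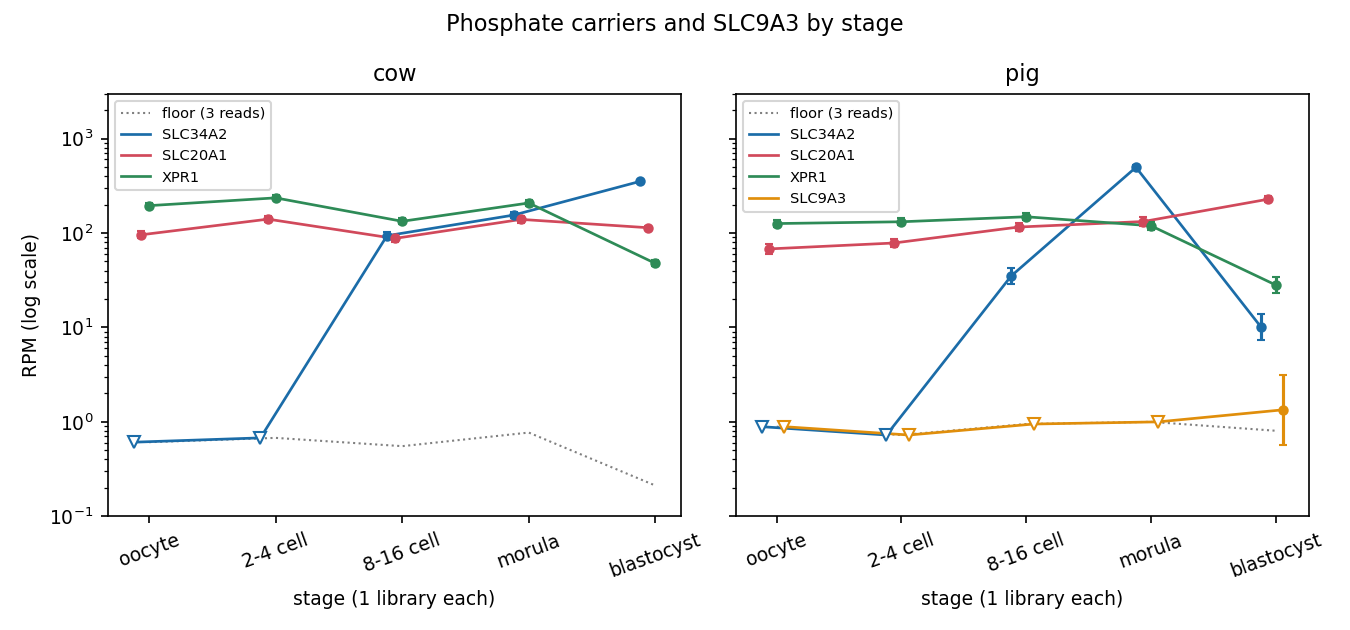
RPM on a log axis of SLC34A2, of the phosphate carriers SLC20A1 and XPR1 and, in pig, of SLC9A3, with 95% Wilson intervals, open triangles for libraries with 3 reads or fewer drawn at the floor, and the floor as a dotted line. SLC34A2 ends at 352 RPM in the cow blastocyst, while in pig it peaks at 496 RPM in the morula and stands at 10.2 RPM in the blastocyst.

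Other sodium-proton exchangers and the scaffold proteins that hold them at the membrane moved in both directions. Of 23 symbols 16 were compared in cow, of which 4 rose and 4 fell (median 0.42), and 11 in pig, of which 4 rose and 3 fell (median -0.12). Of all genes compared, 21.8% rose and 18.4% fell in cow, and 26.0% rose and 19.2% fell in pig. SLC9A3R1, a scaffold that tethers SLC9A3 to the cell's apical cytoskeleton, rose in both: its cow level was 24.5 RPM in the oocyte and 738 RPM in the blastocyst (4.85), its pig level 5.92 and 388 RPM (5.81). In pig its span overlaps NAT9. The cow course had a low point between, at 3.33 RPM (1.95 to 5.70) in the morula, while in pig the morula stood at 79.6 RPM. SLC9A8, an exchanger of inner membranes, rose from 2.43 to 15.8 RPM (cow) and from 3.85 to 54.2 RPM (pig). SLC9B2 fell from 6.90 to 0.705 RPM (cow) and, close to the threshold at -2.06, from 10.95 to 1.88 RPM (pig). In all, 3 symbols moved in opposite directions, and the share of all genes that did so was not computed. SLC9A9, of endosomes, went from 19.5 to 153 RPM in cow and from 11.5 RPM to 3 reads in pig. SLC9A2, an exchanger of the cell surface, went from 6.09 RPM to 0 reads in cow and from 0 reads to 13.9 RPM in pig. The scaffold PDZK1 rose from 2.43 to 15.9 RPM (cow) or fell from 188 to 2.14 RPM (pig), where its span overlaps another row.

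Among 33 other epithelial ion and bicarbonate transporters and regulators, 25 were compared in cow, of which 6 rose and 6 fell (median 0.85), and 19 in pig, of which 6 rose and 4 fell (median 0.69). The shares of all genes were 21.8% risen and 18.4% fallen in cow, and 26.0% and 19.2% in pig. SGK1, a kinase that raises sodium transport in epithelia, had no reads in either oocyte library and rose to 73.3 RPM in the cow blastocyst (5.97) and 74.5 RPM in that of pig (5.90). Its highest libraries were the morula ones, at 474 RPM in cow and 101 RPM in pig. SLC4A5, a sodium-bicarbonate carrier, was at 0 reads in the first 4 cow libraries and 8.53 RPM (7.14 to 10.2) in the blastocyst, and went from 1.78 to 24.4 RPM in pig. SLC8A1, the sodium-calcium exchanger, fell in both, from 311 to 34.5 RPM in cow and from 179 RPM to 1 read in pig. CLCN3, a chloride-proton exchanger of inner membranes, was the 1 gene with opposite calls, up from 7.51 to 34.1 RPM (cow) and down from 581 to 143 RPM (pig), both close to the threshold (2.04 and -2.02), with a pig span that overlaps HPF1.

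**Figure D5:**
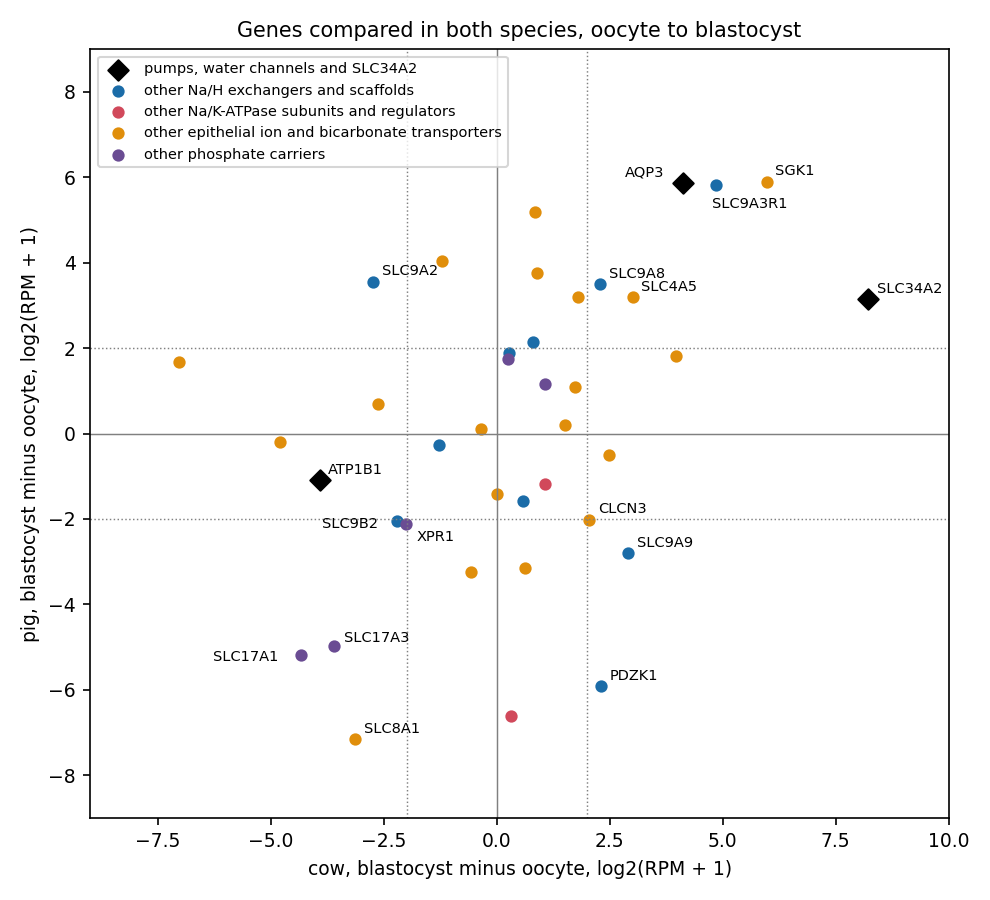
Difference of log2(RPM + 1) from oocyte to blastocyst in cow (x axis) and pig (y axis) for genes compared in both species, with dotted lines at differences of 2 and -2; diamonds are genes of the list, circles the other pathway genes. AQP3 (4.12 and 5.88) and SLC34A2 (8.22 and 3.14) lie in the upper right, and ATP1B1 (-3.92 and -1.09) in the lower left.

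For the 4 listed genes that reached 10 RPM in both species, the genes with the most similar course were found by Pearson's r of log2(RPM + 1), centred within each species, over the 10 libraries and 6277 other shared symbols. With 5 stages per species such values are high for many genes and describe these libraries only. Nearest to ATP1B1 were SF3A3, NDRG4, LEO1, AP5M1 and DEPDC1 (0.962 to 0.949). Nearest to AQP3 were RENBP, SLC7A8, PRKCD, STIM1 and EVI5 (0.972 to 0.944). RENBP, an epimerase of sugar metabolism, shared the late start in pig, with 0 reads in the first 3 libraries, 1 read in the morula and 61.4 RPM in the blastocyst, and stood at 19.0 RPM in the cow morula and 15.7 RPM in the cow blastocyst library. Nearest to AQP11 were SELENOI, TRA2A, NKTR, ACTR5 and KANSL2 (0.980 to 0.972), and nearest to SLC34A2 were LAS1L, SPEN, FAM193B, SLC25A46 and HNRNPH1 (0.974 to 0.962). HNRNPH1, an RNA-binding splicing factor, stood at 374, 1363 and 322 RPM in the last 3 pig libraries and at 1035, 908 and 633 RPM in the last 3 of cow, where SLC34A2 went up.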

How the data were processed

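RNA was measured by sequencing in 10 libraries, 1 per stage and species. Per the labels' protocols, RNA was isolated and amplified with kits for very small samples and libraries were amplified by PCR, so reads are not independent molecules. The submitters' processing notes name Trim Galore 0.6.4, HISAT2 2.1.0 and the builds UMD3.1 and Sscrofa11.1, without roles; coordinates are those of the authors' tables, taken to be on UMD3.1 for cow and Sscrofa11.1 for pig. Counting method, annotation, strand and duplicate handling are not given in the sources used here. The authors deposited log2 values; in every column these were log2 RPM (reads scaled to 1000000 per library), with 100% of the values whole multiples of 1 read (within 0.02 reads or 0.1%) and 0 reads written as 0.9 of a read. Reads were recovered from these steps. Differences were computed from the deposited values with a pseudocount of 1 RPM. No symbol of the list was repeated. Nearest patterns used a minimum of 10 RPM.

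The list was given by name; the other pathway genes were fixed as 5 lists, and those named were the ones called in the same direction in both species (at most 6 a list) or in opposite directions (at most 3). Of the genes in these lists, 2 are not reported here. The genes and lists were chosen with earlier results of these data known. Alternatives changed the pseudocount, the minimum, the threshold, the scaling, the treatment of repeated symbols and of low counts. Recovery of reads and calls was tested on simulated data. Python 3.11.15, numpy 2.4.6, pandas 2.3.3, scipy 1.17.1 and matplotlib 3.10.9 were used.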

Additional observations from a re-analysis of the deposited data

Results flagged for a closer look

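For 4 of the listed genes a step moved in opposite directions in cow and pig, each beyond the 95% exact interval of its own fold. With 1 library per stage these differences between the species were not tested. The 4 are among the 6 listed genes with a row in both species. The share of all genes with opposite steps was not computed, so the count does not set this list apart. Some of the values below are under the threshold of 2. AQP3 from morula to blastocyst was at -2.34 in cow and 5.80 in pig, and SLC34A2 at the same step was at 1.18 in cow and -5.47 in pig. From the 8-16 cell stage to the morula ATP1B1 was at -2.46 in cow and 1.72 in pig, where 49.7% of its span overlaps NME7, and AQP11 was at -0.90 in cow and 3.13 in pig. From oocyte to the 2-4 cell stage ATP1B1 was at 0.22 in cow and -0.93 in pig; the cow value is below the median of all genes compared at that step (0.27) and was -0.11 with median scaling.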

How the results depend on the processing

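Of 900 differences of single genes under 12 alternatives, 0 of the called ones changed sign. 861 stayed within the interval that counting error gives the main value and 39 did not. Changes of the minimum or the threshold, and summing repeated symbols, could not alter these differences. Their part of the 861, and of the 0 sign changes, was fixed in advance. The counts of listed genes moved by over 1.5 times as follows, and the cause was not tested beyond what each setting does by construction. With a threshold of 1 the count was 3 higher at the cow morula, 2 higher at the cow blastocyst step, 1 lower at the first pig step and 2 lower from pig oocyte to blastocyst. With a threshold of 3 it was 3 higher and 0 lower at the cow 8-16 cell step, 0 higher and 0 lower at the cow morula step, and 0 lower at the cow blastocyst step. With a pseudocount of 5 RPM it was 0 lower at the cow 8-16 cell and morula steps and 1 lower at the pig blastocyst step. The scalings (non-mitochondrial gene reads, median, quantile) gave 0 lower at the cow 8-16 cell step, where ATP1B1 is close to the threshold. From pig oocyte to blastocyst 1 was lower, AQP8, with a pseudocount of 0.5 RPM, with quantile normalisation and with 0 reads taken as 0 RPM, an alternative chosen after seeing the data. Scaling to non-mitochondrial gene reads shifted the median of all cow genes from oocyte to blastocyst by 0.41, median scaling by -0.16 and quantile normalisation by -0.18; in pig these shifts were 0.09, -0.30 and -0.41. The shift of the ATP1B1 to ATP1B3 ratio kept its direction with 1 read added to both, which could not have reversed it at these counts. No paired analysis was possible because each group had 1 library. Depth limits AQP8, AQP9 in cow and SLC9A3, which had at most 11 reads in any library.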

Other observations

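Some genes of ion transport outside the rule for named genes had large differences and are given as values, chosen after they were seen. SCNN1A, the alpha subunit of the epithelial sodium channel, had 0, 0, 1 and 0 reads in the first 4 pig libraries and 45.0 RPM (38.7 to 52.4) in the pig blastocyst, while in cow it stood between 1.03 and 8.11 RPM. CA12, a carbonic anhydrase of the cell surface, stood at 16.1 RPM (12.5 to 20.7) in the pig blastocyst and 1.20 RPM in the cow blastocyst. SLC12A2, which brings sodium, potassium and chloride into the cell, was highest at the 8-16 cell stage in cow (782 RPM) and in the morula in pig (95.9 RPM). Its lowest cow library was the blastocyst (10.2 RPM), while in pig the blastocyst (8.58 RPM) and the oocyte (10.1 RPM) did not differ beyond counting error. Ezrin (EZR), which links scaffolds such as SLC9A3R1 to actin, stood at 605 RPM in the cow oocyte, 40.8 RPM in the cow morula and 727 RPM in the cow blastocyst, and in pig at 126, 77.6 and 471 RPM.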
